A study of Danio rerio with 12 samples.

Results

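The proteasome subunit genes were the genes whose symbol starts with psma, psmb, psmc or psmd followed by a digit, with 1 further psmb gene left out of the choice. By symbol, 46 of the 14016 genes named on the array matched, through 95 of its 43603 probes. Among them psmc3ip encodes a partner of a proteasome ATPase that acts in meiotic recombination and is no subunit, which left 45 genes with 93 probes. Of these, 43 genes with 90 probes had a probe that stood well above background throughout at least 1 group of 3 arrays, and the probe shown for each of the 43 was above background on all 12 arrays. The beta subunit genes psmb11a and psmb13a were not well above background on any array and have no values here. The genes psmd5, psmd9 and psmd10 encode assembly chaperones of the base rather than subunits, and are counted with the subunit genes throughout because of their names.

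Each sample was RNA of a pool of 18 to 35 whole zebrafish embryos (AB strain, wild type), injected at the earliest cleavage stages. There were 4 groups of 3 arrays each. Embryos given both PCSK7 and p53 morpholinos were collected 24 h or 6 h after fertilization, and embryos given a control morpholino were collected at the same times. A morpholino is a synthetic antisense oligonucleotide that keeps its target transcript from being translated or spliced. PCSK7 is a protease of the secretory pathway that trims precursor proteins, and p53 is the stress-response transcription factor. Per the labels, 0.25 to 1.0 pmol of each morpholino was injected, and because the p53 morpholino came only together with the PCSK7 morpholino, each morpholino comparison holds both. The pcsk7 transcript itself was not analysed here. Every embryo, control or not, had been injected with a morpholino, and no uninjected embryos were analysed here. Whether the pools of a group had separate clutches or injections behind them is not stated, so p-values reflect only pool-to-pool spread, some of it perhaps technical.

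The proteasome degrades proteins that carry ubiquitin chains. Its core is a barrel of stacked rings, with alpha subunits (psma genes) forming the gated outer rings and beta subunits (psmb genes) the inner rings, some of which carry the peptide-cutting sites. The cap that sits on the barrel recognises ubiquitin and unfolds the substrate, and consists of a base with ATPases (psmc genes) and scaffold and receptor subunits, and of a lid that removes ubiquitin (psmd genes for the non-ATPase subunits). In immune cells and after interferon some catalytic beta subunits are replaced by inducible ones, among them the products of psmb9 and psmb10 genes, which changes the peptides made. Early embryos start with maternal proteasomes and transcripts and take over the supply with their own transcription.

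All values per array are log2 signals relative to the 75th percentile of that array, so 0 is the signal at that percentile, and the levels of different genes cannot be compared because each probe has its own brightness. Changes are log2 differences with the standard error (SE) of limma's fit over all 12 arrays. A gene was called higher or lower at a Benjamini-Hochberg adjusted p under 0.05 over all 36684 kept probes, judged on the brightest of its kept probes. Arrays of 1 group correlated at 0.993 to 0.9962 over the kept probes. The SD of a subunit gene within a group was 0.05 or 0.06 in the median. The 75th percentile signal was 1020 to 1090 on the PCSK7 plus p53 arrays and 695 to 993 on the control arrays at 24 h, and 634 to 730 on the PCSK7 plus p53 arrays and 403 to 513 on the control arrays at 6 h. The control arrays lay on 3 slides, each with the same-numbered 24 h and 6 h array, the PCSK7 plus p53 arrays on a slide for each time that was scanned in another session. Slide and session can therefore not be told apart from the morpholino group, nor slide from time among PCSK7 plus p53 embryos. Of the listed genes of differentiated tissues, all 12 of 12 were higher at 24 h than at 6 h in both morpholino groups. Of the gastrula genes, 10 of 11 measured were lower. Some of the 12, such as the muscle genes mylpfa and myog, passed the filter only through the 24 h groups, which set their direction beforehand. At 6 h, 7 of the 12 were above background on no control array and 3 on no PCSK7 plus p53 array. Above background on all 6 h arrays were 4 in control and 5 in PCSK7 plus p53 embryos, and these rose too.

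The time comparison asks how the subunit transcripts stood at the end of segmentation against the early gastrula. Most were higher at 24 h. In PCSK7 plus p53 embryos 37 of the 43 genes rose and 4 fell, where 89.8% of all kept probes were called (45.2% higher and 44.6% lower). In control embryos 38 rose and 5 fell, where 90.1% of all kept probes were called (45.5% higher and 44.6% lower). The median change of the 43 genes was 1.50 in PCSK7 plus p53 embryos and 1.78 in control embryos, whereas that of all 12849 named genes was 0.10 and 0.15. The 24 h and 6 h arrays did not overlap for 41 of the genes in PCSK7 plus p53 embryos (37 with every 24 h array higher and 4 with every one lower, against 45.4% and 45.2% of kept probes) and for all 43 in control embryos (38 and 5, against 46% and 45%). In pools of whole embryos, a change in RNA per cell and a change in the number of cells that carry it cannot be told apart.

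**Figure D1:**
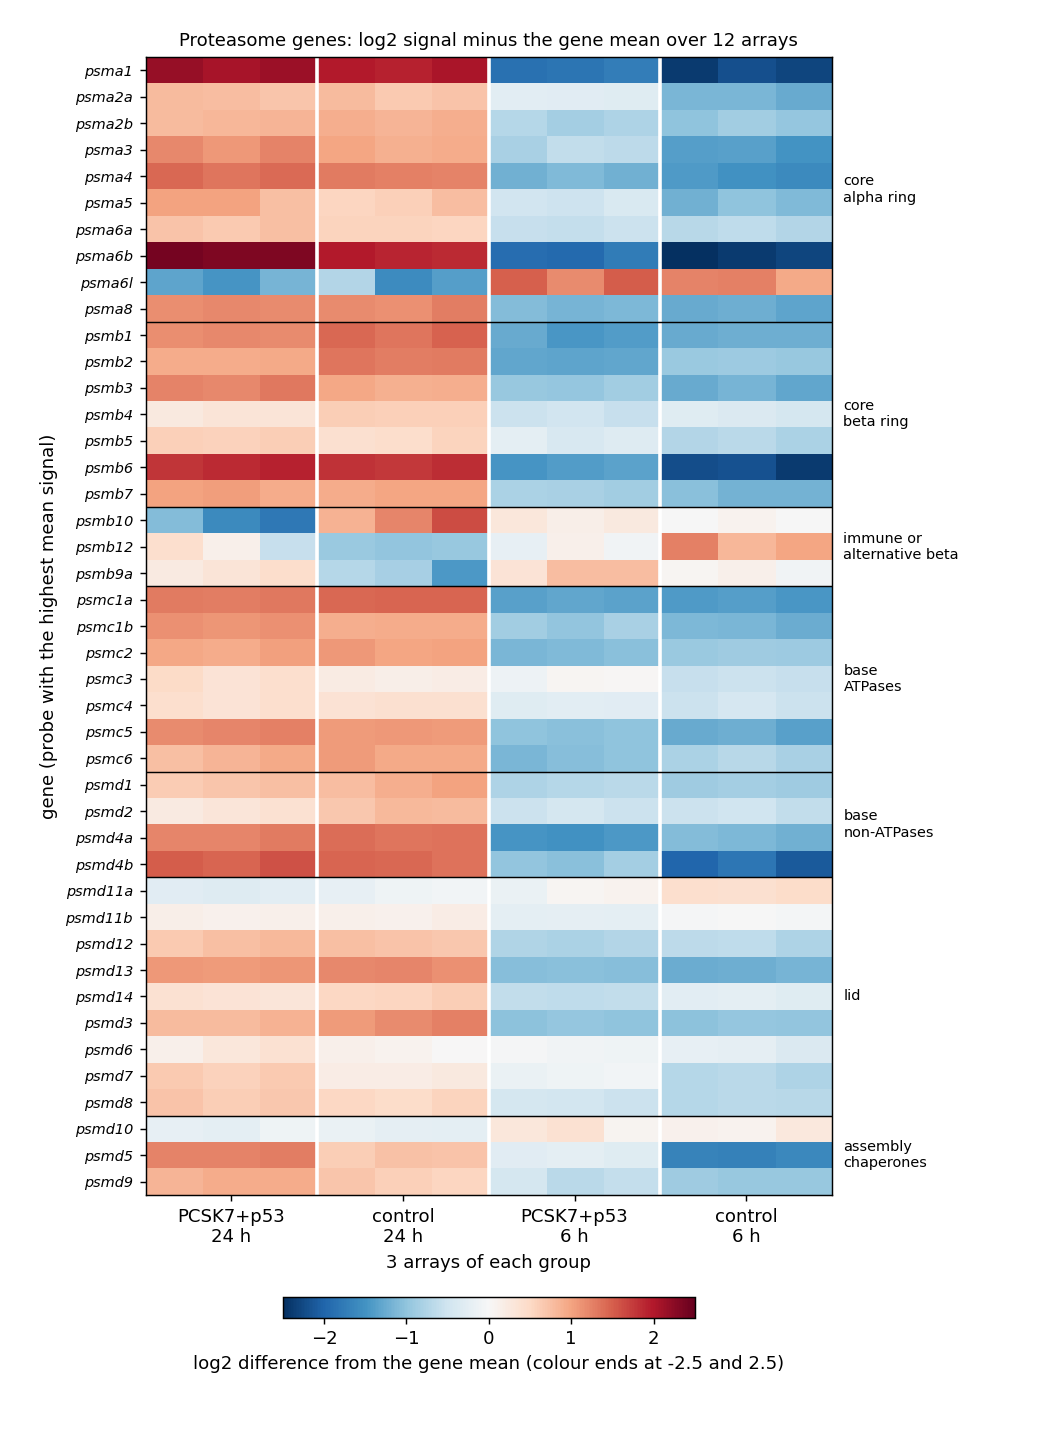
Log2 signal of each proteasome subunit gene (rows, grouped by role) on each array (columns, 3 per group), as the difference from the gene's mean over the 12 arrays, red above and blue below it. Most rows are red at 24 h and blue at 6 h in both morpholino groups, while psma6l, psmd11a and psmd10 run the other way and psmb10, psmb12 and psmb9a each have a pattern of their own.

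The alpha ring rose almost as a whole. Of its 10 genes 9 rose and 1 fell in each morpholino group, with a median of 1.74 in PCSK7 plus p53 embryos and 2.12 in control embryos. The largest rise was that of psma6b, an alpha ring subunit gene, with 2.98, 2.92 and 2.93 at 24 h against -1.31, -1.36 and -1.15 at 6 h in PCSK7 plus p53 embryos. Control embryos had 2.58, 2.49 and 2.45 at 24 h against -1.95, -1.81 and -1.70 at 6 h. All 24 h arrays were far above all 6 h arrays in both groups, by 18.5-fold in PCSK7 plus p53 embryos (log2 4.21, SE 0.08, adjusted p = 4.24e-12) and 20.1-fold in control embryos (log2 4.33, SE 0.08, adjusted p = 3.18e-12). Next came psma1, with a rise of 3.94 in PCSK7 plus p53 embryos and 4.27 in control embryos.

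The exception in the alpha ring was psma6l, a further gene named for the same subunit. It had -5.58, -5.74 and -5.44 at 24 h against -2.77, -3.08 and -2.76 at 6 h in PCSK7 plus p53 embryos, and -5.01, -5.85 and -5.65 at 24 h against -3.03, -3.02 and -3.32 at 6 h in control embryos. Every 24 h array was lower than every 6 h array, with a change of -2.72 (SE 0.20, adjusted p = 1.72e-07) in PCSK7 plus p53 embryos and -2.38 (SE 0.20, adjusted p = 5.26e-07) in control embryos. The size of this fall, measured by 1 probe, depended on the processing. Over 6 ways of scaling it lay between -3.44 and -1.49 in PCSK7 plus p53 embryos and between -3.25 and -1.26 in control embryos. Here and below, the 6 ways of scaling include another background correction and the authors' deposited value table. The remaining gene named for this subunit, psma6a, rose by 1.28 in PCSK7 plus p53 embryos and 1.23 in control embryos. Whether the probes of such related copies share signal was not tested.

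All 7 constitutive beta ring genes rose in both morpholino groups, with medians of 2.18 in PCSK7 plus p53 embryos and 2.17 in control embryos. The largest rise was psmb6, which encodes the caspase-like catalytic subunit, at 5.02, 5.10 and 5.15 at 24 h against 1.75, 1.83 and 1.90 at 6 h in PCSK7 plus p53 embryos, and at 5.04, 4.99 and 5.07 at 24 h against 1.01, 1.05 and 0.83 at 6 h in control embryos. The 24 h arrays of the morpholino groups overlapped while their 6 h arrays did not, and the rise was 9.58-fold in PCSK7 plus p53 embryos (log2 3.26, SE 0.07, adjusted p = 1.35e-11) and 16.8-fold in control embryos (log2 4.07, SE 0.07, adjusted p = 2.54e-12). The trypsin-like subunit gene psmb7 rose by 1.82 and 2.11, and the chymotrypsin-like subunit gene psmb5 by 0.91 and 1.20, in PCSK7 plus p53 and in control embryos. The smallest rise was that of psmb4, by 0.83 in PCSK7 plus p53 embryos and 0.97 in control embryos, the second of which became -0.01 under quantile normalization.

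In the cap, 19 of 20 genes rose and 1 fell in each morpholino group, with medians of 1.45 in PCSK7 plus p53 embryos and 1.58 in control embryos. All 7 ATPase genes rose, between 0.43 (psmc3) and 2.63 (psmc1a) in PCSK7 plus p53 embryos and between 0.75 (psmc3) and 2.87 (psmc1a) in control embryos. On the arrays psmc1a had 4.10, 4.08 and 4.13 at 24 h against 1.45, 1.51 and 1.47 at 6 h in PCSK7 plus p53 embryos, and 4.25, 4.27 and 4.26 against 1.39, 1.43 and 1.35 in control embryos, without overlap (adjusted p = 4.53e-12 and 2.23e-12). Its duplicate psmc1b rose by 2.02 in PCSK7 plus p53 embryos and 2.09 in control embryos. The rise of psmc3 in PCSK7 plus p53 embryos did not pass when arrays were scaled by their median.

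The base scaffold and receptor genes all rose, from the scaffold gene psmd2 at the low end (0.81 in PCSK7 plus p53 embryos, 1.31 in control embryos) to the ubiquitin receptor genes psmd4a and psmd4b. The copy psmd4b had 2.95, 2.88 and 3.02 at 24 h against 0.44, 0.38 and 0.57 at 6 h in PCSK7 plus p53 embryos, and 2.88, 2.87 and 2.78 against -0.56, -0.38 and -0.68 in control embryos. Times did not overlap in either group, with changes of 2.49 (SE 0.09) in PCSK7 plus p53 embryos and 3.39 (SE 0.09) in control embryos. The copy psmd4a rose by 2.72 in PCSK7 plus p53 embryos and 2.50 in control embryos.

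Of the 9 lid genes 8 rose and 1 fell in each morpholino group, with medians of 0.97 in PCSK7 plus p53 embryos and 0.93 in control embryos. The largest rise was psmd13, by 2.14 in PCSK7 plus p53 embryos and 2.39 in control embryos. The copies of psmd11, whose product scaffolds the lid, differed in direction. For psmd11a the arrays read 3.06, 3.03 and 3.09 at 24 h against 3.19, 3.39 and 3.44 at 6 h in PCSK7 plus p53 embryos, and 3.14, 3.25 and 3.29 against 3.77, 3.75 and 3.81 in control embryos. Every 24 h array was lower, a fall of 0.28 (log2 -0.28, SE 0.07, adjusted p = 0.00435) in PCSK7 plus p53 embryos and of 0.55 (log2 -0.55, SE 0.07, adjusted p = 3.19e-05) in control embryos. The copy psmd11b rose by 0.36 in PCSK7 plus p53 embryos and 0.18 in control embryos, but with array-median scaling the first no longer passed and the second became -0.16. The lid gene psmd6 rose by 0.34 in PCSK7 plus p53 embryos and 0.33 in control embryos, a direction that turned under quantile normalization in both groups (-0.45 and -0.50). The deubiquitinase gene psmd14 rose by 0.97 in PCSK7 plus p53 embryos and 0.82 in control embryos, the second of which did not pass under quantile normalization.

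Of the base assembly chaperones that carry psmd names, psmd5 (1.53 in PCSK7 plus p53 embryos, 2.35 in control embryos) and psmd9 (1.47 and 1.54) rose and psmd10 (gankyrin) fell. The fall of psmd10 was 0.42 in PCSK7 plus p53 embryos (log2 -0.42, SE 0.09, adjusted p = 0.000832), with 1.96, 1.92 and 2.05 at 24 h against 2.44, 2.54 and 2.22 at 6 h, and 0.36 in control embryos (log2 -0.36, SE 0.09, adjusted p = 0.00247), with 1.99, 1.94 and 1.91 against 2.27, 2.24 and 2.42. The arrays of the times did not overlap in either group.

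Gene by gene, the time changes of PCSK7 plus p53 and control embryos, which share no array, had a Pearson correlation of 0.90 and a Spearman correlation of 0.95 across the 43 genes, and of 0.97 and 0.96 across the 40 genes without the immune or alternative beta subunits. This is a description across genes, which are not independent replicates, and the points share their probes. All 29 genes with more than 1 kept probe had the same call on every probe in both time comparisons. Of the calls, 38 of 41 in PCSK7 plus p53 embryos and 39 of 43 in control embryos held in every alternative processing that covered the gene. The psmd3 probe shown is absent from the deposited value table. With slide as a fixed block among the 6 control arrays, 37 genes rose and 5 fell.

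**Figure D2:**
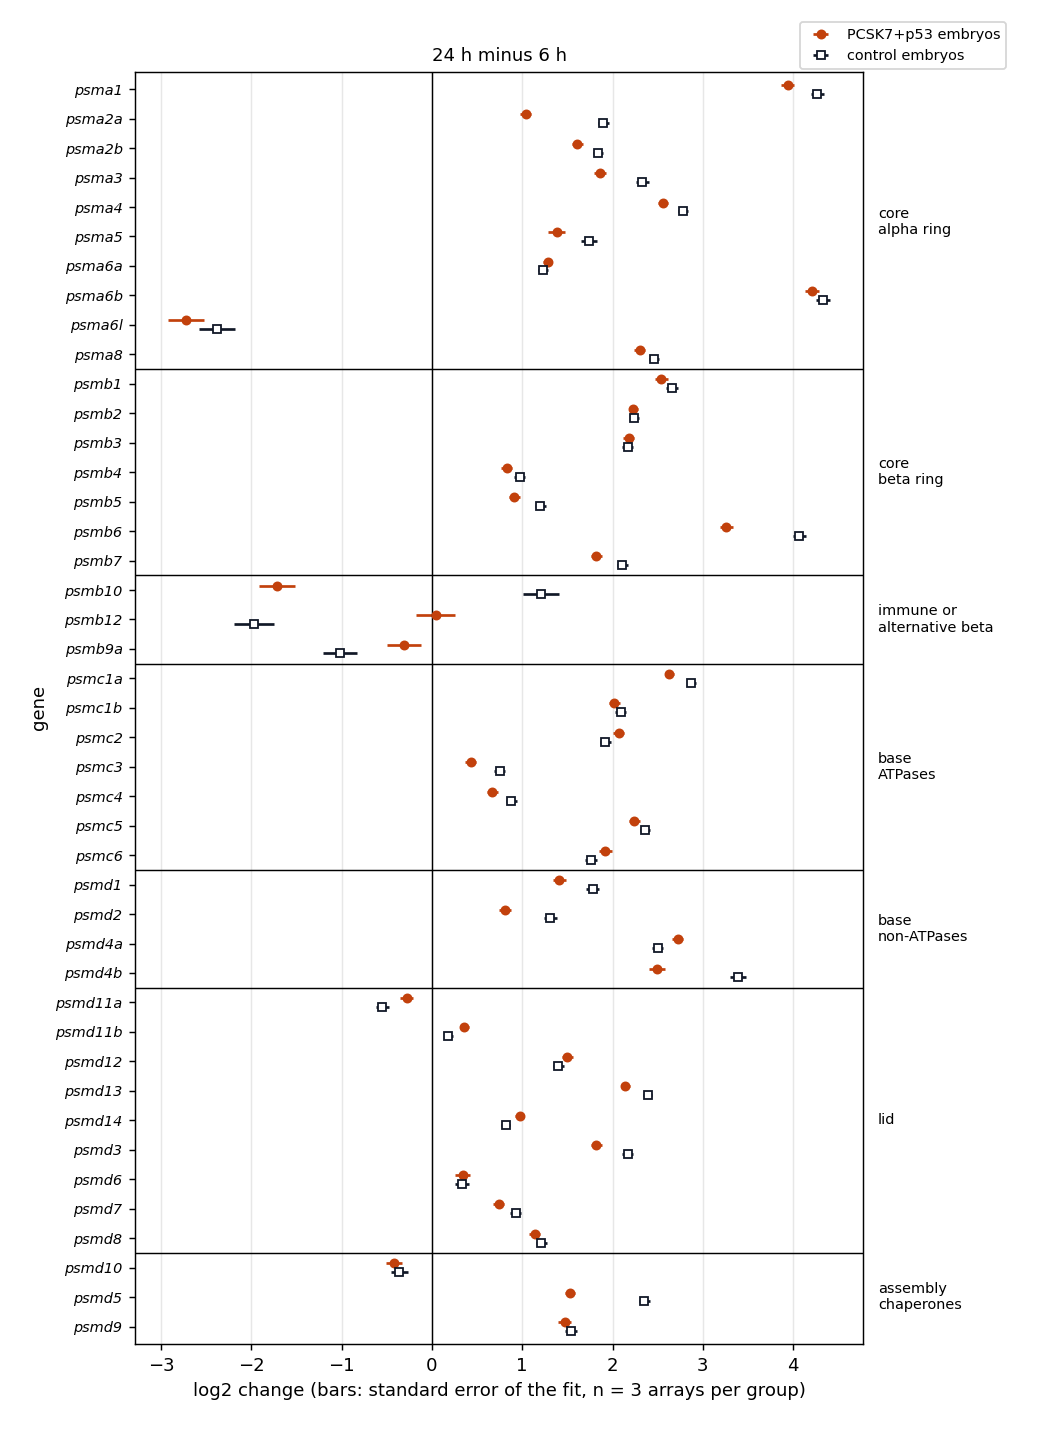
Log2 change at 24 h against 6 h of each subunit gene (rows, grouped by role) in PCSK7 plus p53 embryos (filled circles) and control embryos (open squares), with the standard error of the fit, n = 3 arrays per group. Points lie right of 0 for 37 and 38 called genes, with psma6b furthest right (4.21 and 4.33) and psma6l furthest left (-2.72 and -2.38), and the symbols of psmb10 lie on opposite sides of 0.

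The comparison at 6 h asks what the PCSK7 plus p53 morpholinos changed at the start of gastrulation. Core genes were mostly higher and cap genes mixed. Of the 43 genes, 23 rose, 9 fell and 11 did not pass, where 59.6% of all kept probes were called (28.4% higher and 31.2% lower). Their median change was 0.19, against 0.00 for all named genes. Every PCSK7 plus p53 array was above every control array for 28 genes and below for 9 (31.1% and 34.7% of kept probes), and the groups overlapped for 6. In the core without the immune or alternative subunits, 12 of 17 genes rose and 2 fell, with a median of 0.32. In the cap, 8 of 20 rose and 6 fell, with a median of 0.12.

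In the alpha ring 8 of 10 genes rose and 0 fell (80% and 0%, against 28.4% and 31.2% of all kept probes), with a median of 0.42. The largest change was in psma2a, with 3.85, 3.83 and 3.81 in PCSK7 plus p53 embryos against 2.97, 2.98 and 2.86 in control embryos. The groups were well apart, 1.86-fold (log2 0.89, SE 0.06, adjusted p = 1.77e-06). Its duplicate psma2b read 2.45, 2.32 and 2.40 in PCSK7 plus p53 embryos against 2.17, 2.30 and 2.21 in control embryos, a change of 0.16 that was narrow (SE 0.06, adjusted p = 0.0408) and did not pass in 13 of 23 alternative settings, among them those without control replicate 1 or 3 or PCSK7 plus p53 replicate 1 or 3 at 6 h, or without any control array or PCSK7 plus p53 replicate 2 or 3 at 24 h.

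The gene psma3 had 1.77, 1.96 and 1.92 in PCSK7 plus p53 embryos against 1.21, 1.22 and 1.09 in control embryos, and rose by 0.71 (SE 0.07, adjusted p = 2.36e-05). Further rises were psma6b by 0.55 (SE 0.08), psma1 by 0.49 (SE 0.07) and psma4 by 0.35 (SE 0.06). Probes disagreed for psma5: the brighter one read 3.89, 3.84 and 3.98 in PCSK7 plus p53 embryos against 3.16, 3.35 and 3.26 in control embryos (log2 0.65, SE 0.09, adjusted p = 0.000196), and the other changed by -0.08 (adjusted p = 0.475). The genes psma6a (0.10, adjusted p = 0.127) and psma6l (0.25, adjusted p = 0.294) did not pass, and psma8 passed at 0.15 (SE 0.06) on 1 of its 3 probes, a call lost in 17 of 23 alternative settings.

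In the constitutive beta ring 4 of 7 genes rose and 2 fell (57.1% and 28.6%, against 28.4% and 31.2% of all kept probes). Among the rises were all 3 catalytic subunit genes. The caspase-like psmb6 had 1.75, 1.83 and 1.90 in PCSK7 plus p53 embryos against 1.01, 1.05 and 0.83 in control embryos. Each PCSK7 plus p53 array was higher, by 1.82-fold in the mean (log2 0.87, SE 0.07, adjusted p = 6.99e-06). The chymotrypsin-like psmb5 rose by 0.41 (SE 0.06, adjusted p = 0.000361) on all of its 3 probes and the trypsin-like psmb7 by 0.31 (SE 0.06, adjusted p = 0.00142). The structural gene psmb3 rose by 0.32 (SE 0.06).

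The structural beta genes psmb2 and psmb4 went the other way. For psmb2 the arrays gave 2.93, 2.91 and 2.93 in PCSK7 plus p53 embryos against 3.29, 3.32 and 3.27 in control embryos. The groups were tight and apart, with a change of -0.37 (SE 0.05, adjusted p = 0.000136), but the other probe of the gene changed by -0.09 and did not pass (adjusted p = 0.275). The fall of psmb4, at -0.16 (SE 0.06, adjusted p = 0.032), was lost when control replicate 1 or 2 or PCSK7 plus p53 replicate 1 or 3 at 6 h was left out.

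Among the ATPases 4 of 7 rose and 2 fell (57.1% and 28.6%, against 28.4% and 31.2% of all kept probes). The largest rise was psmc3, with 3.32, 3.49 and 3.48 in PCSK7 plus p53 embryos against 2.86, 2.90 and 2.86 in control embryos (log2 0.56, SE 0.06, adjusted p = 4.8e-05), on both of its probes. The largest fall was psmc6, with 2.90, 2.97 and 3.03 in PCSK7 plus p53 embryos against 3.24, 3.34 and 3.22 in control embryos (log2 -0.30, SE 0.07, adjusted p = 0.00474). Neither gene had overlapping groups, yet the dimmer psmc6 probe changed by 0.18 and did not pass. The copies of psmc1 were 0.28 (psmc1b, SE 0.06, adjusted p = 0.00295) and 0.08 (psmc1a, adjusted p = 0.181), though 2 of the 4 psmc1a probes passed, at 0.20 and 0.28.

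The ubiquitin receptor copies moved in opposite directions. The gene psmd4b had 0.44, 0.38 and 0.57 in PCSK7 plus p53 embryos against -0.56, -0.38 and -0.68 in control embryos, 2.00-fold higher (log2 1.00, SE 0.09, adjusted p = 7.65e-06), and its other probe rose by 1.25. The gene psmd4a had 2.26, 2.23 and 2.31 in PCSK7 plus p53 embryos against 2.66, 2.61 and 2.53 in control embryos, a change of -0.33 (SE 0.06, adjusted p = 0.000765). Both copies had groups without overlap. The scaffold genes psmd1 (0.16) and psmd2 (0.04) did not pass.

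In the lid 3 of 9 genes rose, 3 fell and 3 did not pass, with a median of 0.00. That is 33.3% each way, near the 28.4% higher and 31.2% lower of all kept probes. The gene psmd7, whose product pairs with the lid deubiquitinase, had 2.75, 2.82 and 2.86 in PCSK7 plus p53 embryos against 2.21, 2.25 and 2.14 in control embryos and rose by 0.61 (SE 0.06, adjusted p = 1.5e-05). The deubiquitinase gene itself, psmd14, had 4.60, 4.57 and 4.60 in PCSK7 plus p53 embryos against 4.95, 4.96 and 4.90 in control embryos and fell by 0.35 (log2 -0.35, SE 0.05, adjusted p = 0.000343). Partner subunits of the same module therefore lay on opposite sides of the control arrays. Both psmd11 copies fell, psmd11a with 3.19, 3.39 and 3.44 in PCSK7 plus p53 embryos against 3.77, 3.75 and 3.81 in control embryos (log2 -0.44, SE 0.07, adjusted p = 0.000572) and psmd11b by 0.20 (log2 -0.20, SE 0.05, adjusted p = 0.00655).

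The largest rise among the 43 genes at 6 h was that of the assembly chaperone psmd5, ahead of the largest in a subunit proper (psmd4b, 1.00). The product of psmd5 keeps the base from docking to the core too early. The gene psmd5 had 0.53, 0.56 and 0.50 in PCSK7 plus p53 embryos against -0.87, -0.89 and -0.81 in control embryos, 2.61-fold higher (log2 1.38, SE 0.06, adjusted p = 8.93e-08). The arrays within a group differed by far less than the groups, and the second psmd5 probe also rose by 1.38 (adjusted p = 4.42e-06). The chaperone gene psmd9 rose by 0.37 (SE 0.07, adjusted p = 0.00159), and psmd10 (0.09) did not pass.

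Of the 32 calls at 6 h, 23 (18 higher and 5 lower) held in each of the 23 alternative settings, and 10 of the 29 genes with more than 1 kept probe had probes that differed in call, none of them called in both directions. Gastrula genes moved with the morpholino group at 6 h: 8 of 11 measured were higher and 0 lower (72.7% higher, against 28.4% of all kept probes), and their summed signal, relative to the 75th percentile, was 133 to 141 in PCSK7 plus p53 embryos against 84.2 to 99.6 in control embryos. All 11 were above background in both groups, and the part of stage or cell makeup in the subunit changes was not tested.

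**Figure D3:**
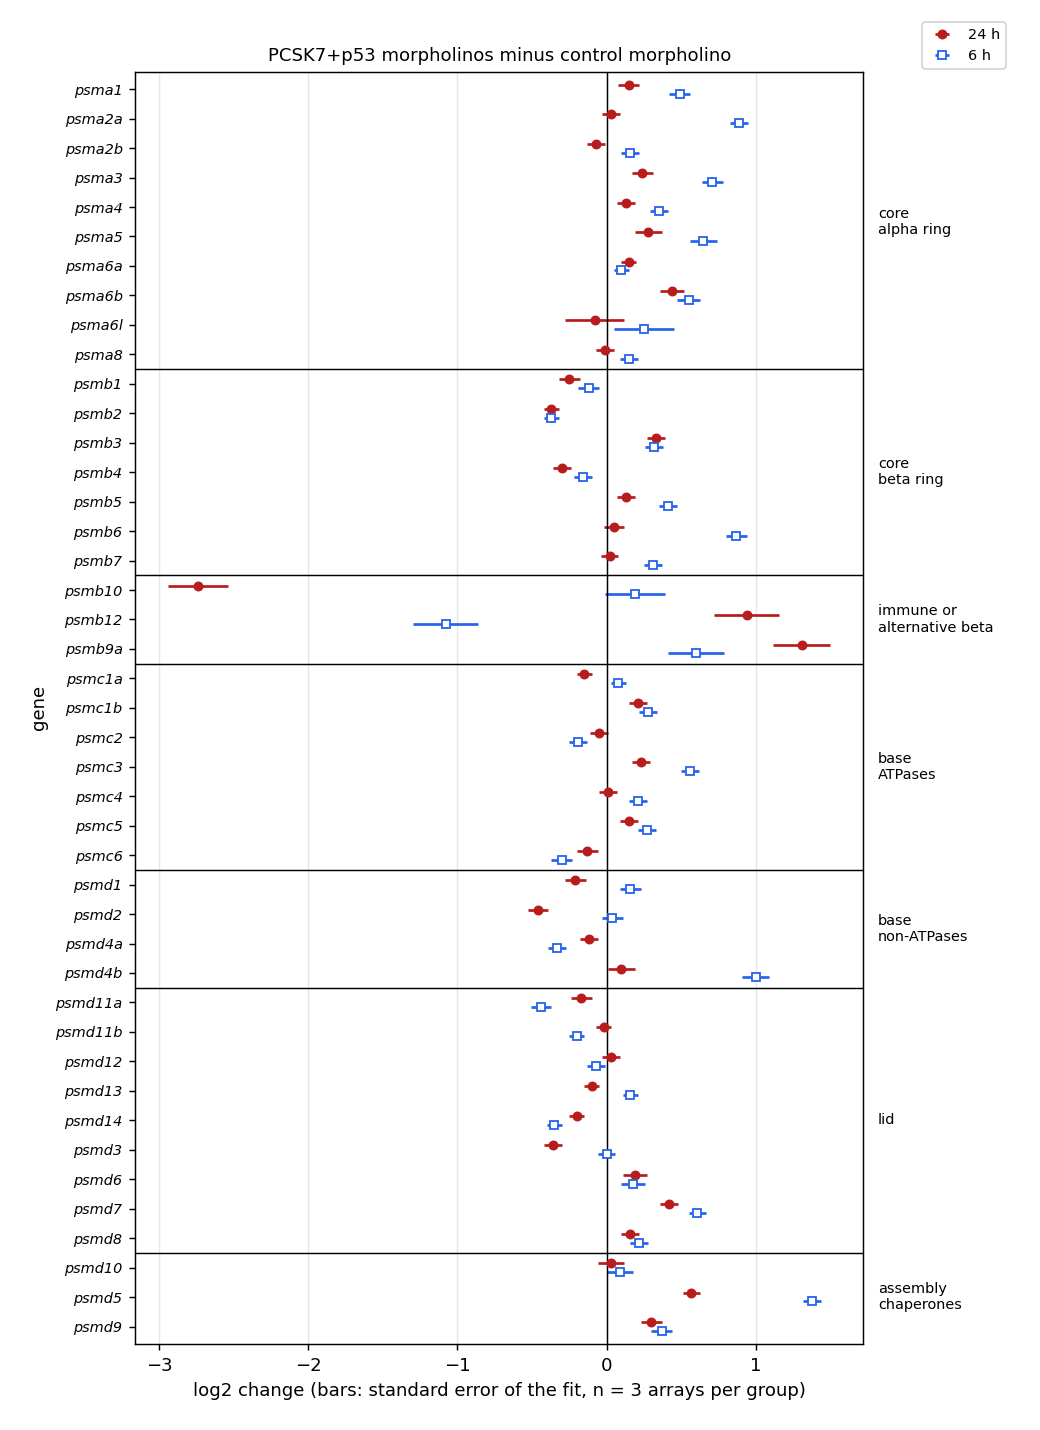
Log2 change in PCSK7 plus p53 against control embryos of each subunit gene (rows, grouped by role) at 24 h (filled circles) and 6 h (open squares), with the standard error of the fit, n = 3 arrays per group. At 6 h the alpha ring lies right of 0 and psmd5 furthest right (1.38), at 24 h most genes lie close to 0, and psmb10 stands far left at 24 h (-2.74).

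At 24 h the PCSK7 plus p53 embryos differed from control embryos in fewer subunit genes. Of the 43, 13 rose, 9 fell and 21 did not pass, where 45.7% of all kept probes were called (20.6% higher and 25.1% lower), and the median change was 0.03 against -0.03 for all named genes. Every PCSK7 plus p53 array was above every control array for 18 genes and below for 14 (28% and 33.4% of kept probes). Of the 29 genes with more than 1 kept probe, 16 had probes that differed in call at 24 h, none of them called in both directions. For psmc6 the probe shown changed by -0.13 and did not pass, while the other was called higher at 0.37. The balance depended on the scaling: 59.1% of the subunit calls were higher as given, 83.3% under quantile normalization (20 higher, 4 lower), 82.6% with cyclic loess (19 and 4), 69.6% with array-median scaling (16 and 7) and 87% in the authors' deposited value table (20 and 3 of 42 genes). Of the 22 calls, 11 (7 higher and 4 lower) held in every alternative that covered the gene. Those that rose were psma6b, psmb3, psmb9a, psmb12, psmd5, psmd7 and psmd9, and those that fell were psmb2, psmb10, psmd2 and psmd3. The psmd3 probe shown is absent from the deposited value table, where lower calls were fewest, so its fall was not judged there.

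In the core, 4 of 10 alpha genes rose and 0 fell (40% and 0%, against 20.6% and 25.1% of all kept probes). The largest was psma6b, with 2.98, 2.92 and 2.93 in PCSK7 plus p53 embryos against 2.58, 2.49 and 2.45 in control embryos, and all arrays apart (log2 0.44, SE 0.08, adjusted p = 0.00172). The gene psma3 passed at 0.24 (SE 0.07, adjusted p = 0.0216), a call lost without control replicate 2 or 3 or PCSK7 plus p53 replicate 1 or 3 at 24 h. The brighter psma5 probe passed with overlapping groups, at 5.36, 5.36 and 5.12 in PCSK7 plus p53 embryos against 4.90, 4.95 and 5.14 in control embryos (log2 0.28, SE 0.09, adjusted p = 0.0294), and not without control replicate 1 or 2 or PCSK7 plus p53 replicate 1 or 2. The other psma5 probe changed by -0.12 (adjusted p = 0.337).

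Of the 7 constitutive beta genes 1 rose and 3 fell (14.3% and 42.9%, against 20.6% and 25.1% of all kept probes). The gene psmb3 had 3.72, 3.69 and 3.81 in PCSK7 plus p53 embryos against 3.46, 3.38 and 3.39 in control embryos (log2 0.33, SE 0.06, adjusted p = 0.00204). The gene psmb2 had 5.15, 5.15 and 5.17 in PCSK7 plus p53 embryos against 5.57, 5.50 and 5.52 in control embryos (log2 -0.37, SE 0.05, adjusted p = 0.000255). The groups of both genes were apart, but the second psmb2 probe changed by 0.09 and did not pass (adjusted p = 0.303). The catalytic genes psmb5 (0.13, adjusted p = 0.131), psmb6 (0.05, adjusted p = 0.59) and psmb7 (0.02, adjusted p = 0.784) did not pass, although 1 of the 3 psmb5 probes rose by 0.33 (adjusted p = 0.00224).

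In the cap 4 of 20 genes rose and 5 fell. These shares, 20% and 25%, were near those of all kept probes (20.6% and 25.1%), so the counts set the cap apart from neither. The lid gene psmd7 rose by 0.42, with 3.58, 3.49 and 3.57 in PCSK7 plus p53 embryos against 3.11, 3.11 and 3.16 in control embryos (SE 0.06, adjusted p = 0.000357). The largest falls were those of scaffold and lid genes. The base scaffold gene psmd2 had 4.81, 4.88 and 4.96 in PCSK7 plus p53 embryos against 5.26, 5.40 and 5.38 in control embryos (log2 -0.46, SE 0.07, adjusted p = 0.000437), and the lid gene psmd3 had 4.79, 4.78 and 4.86 against 5.06, 5.18 and 5.26 (log2 -0.36, SE 0.06, adjusted p = 0.0013). Neither overlapped, and the falls passed on 2 of 3 psmd2 probes and 3 of 4 psmd3 probes.

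The other large base scaffold gene, psmd1, had 4.42, 4.49 and 4.55 in PCSK7 plus p53 embryos against 4.57, 4.71 and 4.80 in control embryos. The groups were close but apart, and its fall (log2 -0.21, SE 0.07, adjusted p = 0.0353) was lost in 9 of 23 alternatives, among them those without control replicate 2 or 3 or PCSK7 plus p53 replicate 1 or 2 at 24 h. Of the ATPases, psmc3 rose by 0.23 (SE 0.06, adjusted p = 0.0138, not passed without PCSK7 plus p53 replicate 1 at 24 h), with 3.92, 3.79 and 3.86 in PCSK7 plus p53 embryos against 3.65, 3.59 and 3.63 in control embryos, and psmc1b rose by 0.21 (SE 0.06, adjusted p = 0.0182, not passed without PCSK7 plus p53 replicate 3 at 24 h). The psmc1a probe shown fell slightly, with 4.10, 4.08 and 4.13 in PCSK7 plus p53 embryos against 4.25, 4.27 and 4.26 in control embryos (log2 -0.15, SE 0.05, adjusted p = 0.0316). Its 3 other probes changed by -0.14 to 0.14 and did not pass, and the call was lost in 12 of 23 alternatives, among them those without any 24 h control array or without PCSK7 plus p53 replicate 1 or 2 at 24 h.

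The chaperone psmd5 was again among the clearest, with 2.05, 2.05 and 2.08 in PCSK7 plus p53 embryos against 1.42, 1.54 and 1.53 in control embryos (log2 0.57, SE 0.06, adjusted p = 4.63e-05). Both of its probes rose, the second by 0.90, and psmd9 rose by 0.30 (SE 0.07, adjusted p = 0.00777).

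Gastrula genes were also higher in PCSK7 plus p53 embryos at 24 h, 5 of 11 measured with 0 lower. That is 45.5% higher, against 20.6% of all kept probes. Their summed signal was 28.6 to 30.0 in PCSK7 plus p53 embryos against 26.3 to 27.5 in control embryos. Most of that sum came from sox3, which did not pass (means of 4.52 and 4.45, log2 0.08, adjusted p = 0.546). Among the genes called higher, sox32 was not well above background on any control array at 24 h. Of the differentiated tissue genes 0 of 12 were higher and 3 lower at 24 h (25% lower, against 25.1% of all kept probes), and the part of stage in the 24 h subunit changes was not tested.

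Setting the times side by side, 11 genes were higher at both, 3 lower at both and 12 higher at 6 h without passing at 24 h. A further 6 were lower at 24 h without passing at 6 h, and 5 lower at 6 h without passing at 24 h. Only 1 was higher at 24 h without passing at 6 h, 1 (psmb12) was lower at 6 h and higher at 24 h, and 4 passed at neither time. The joint shares over all kept probes were not computed, so nothing is read from these counts. The morpholino changes at 24 h and at 6 h, which share no array, had a Spearman correlation of 0.64 and a Pearson correlation of 0.19 across the 43 genes, and of 0.77 and 0.70 across the 40 without the immune or alternative subunits. The points share their probes and, for both times, the split of morpholino groups over slides, sessions and software builds, so this is a description only.

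The difference between the morpholino effects (24 h minus 6 h) was tested in the same fit. It was negative and passed for 17 genes and positive for 2, where 46.5% of kept probes were called (24.5% negative and 22% positive), and its median was -0.16 against -0.04 for all named genes. This count also depended on the scaling, with 10.5% of the calls positive as given, 62.5% under quantile normalization (10 positive, 6 negative), 58.8% with cyclic loess and in the deposited value table (10 and 7 in each) and 23.5% with array-median scaling (4 and 13). In all of the 23 alternatives 7 genes passed with the same sign: psma2a, psma3, psmb6, psmd4b, psmd5 and psmb10 with a smaller or more negative effect at 24 h, and psmb12 with a positive difference. Of these psma2a, psma3 and psmb6 were measured by 1 kept probe each. The alternative that averages the probes of a gene could not change their values.

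For psma2a the effect was 0.03 at 24 h and 0.89 at 6 h (difference -0.86, SE 0.09, adjusted p = 4.42e-05). At 24 h its arrays read 4.91, 4.88 and 4.81 in PCSK7 plus p53 embryos against 4.90, 4.78 and 4.83 in control embryos, which overlapped. The effect on psmb6 was 0.05 at 24 h and 0.87 at 6 h (difference -0.81, SE 0.10, adjusted p = 0.000197), and on psmd4b 0.10 at 24 h and 1.00 at 6 h (difference -0.90, SE 0.12, adjusted p = 0.000281). A second psmd4b probe rose at 24 h by 0.27 (adjusted p = 0.0225). For these 3 genes the PCSK7 plus p53 and control embryos were apart at 6 h and close at 24 h. The effect on psmd5 was 0.57 at 24 h and 1.38 at 6 h (difference -0.82, SE 0.08, adjusted p = 3.71e-05), and that on psma3 0.24 at 24 h and 0.71 at 6 h (difference -0.47, SE 0.10, adjusted p = 0.00444).

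**Figure D4:**
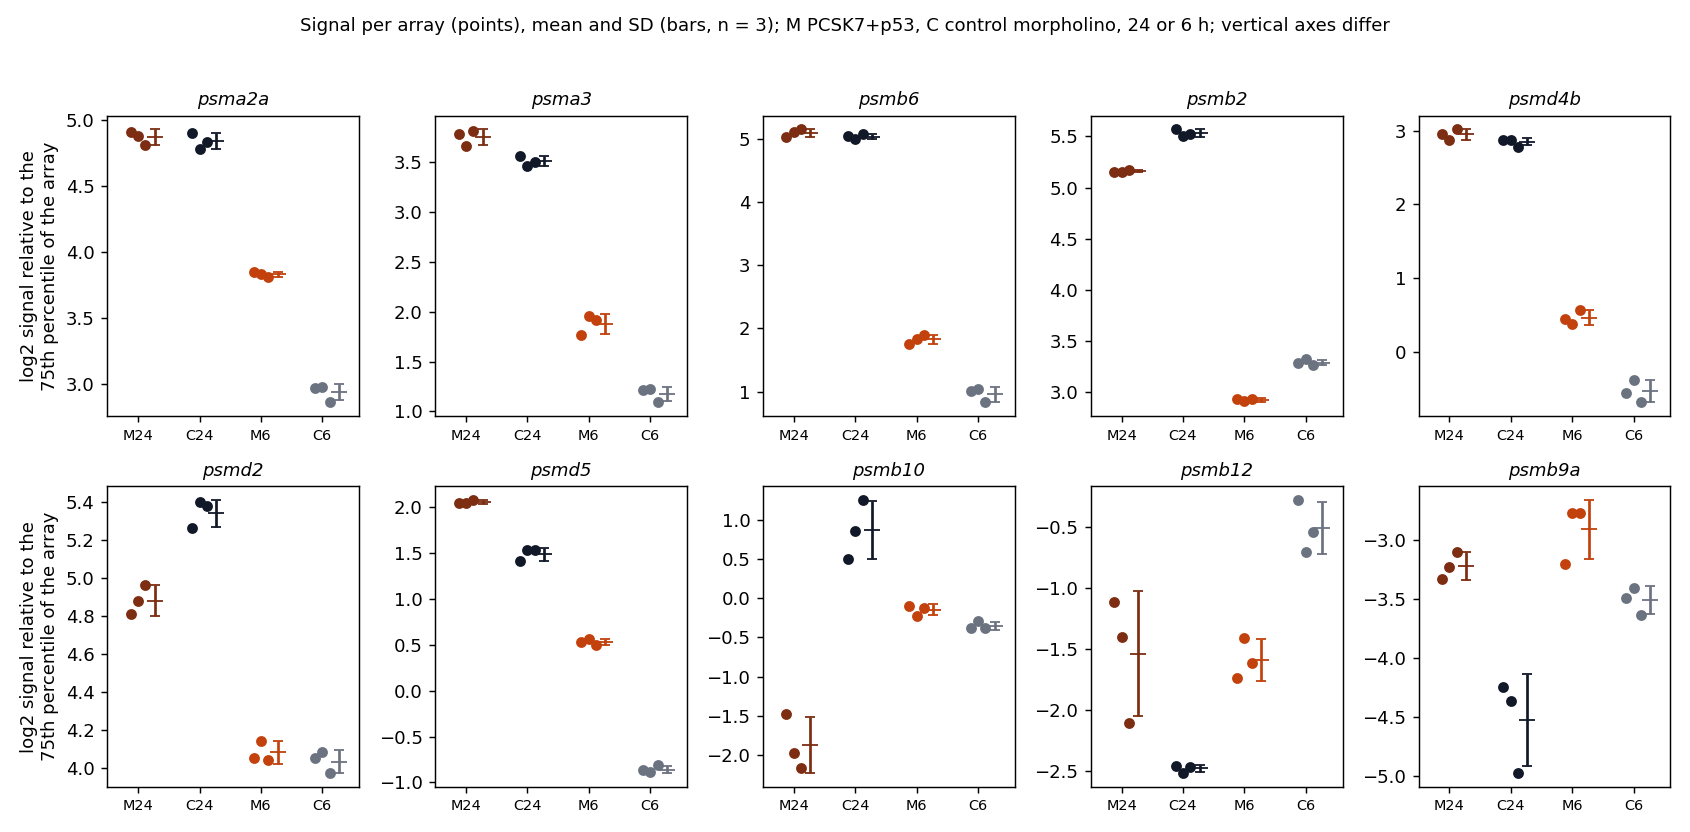
Log2 signal relative to the array's 75th percentile on each of the 3 arrays per group (points) for 10 subunit genes, with mean and SD beside them, in PCSK7 plus p53 (M) and control (C) embryos at 24 h and 6 h; vertical axes differ between panels. The groups of psma2a and psmb6 overlap at 24 h and part at 6 h, and those of psmd4b lie close at 24 h and part at 6 h. The gene psmd5 is apart at both times, and psmb10 lies 2.74 below control at 24 h.

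On the probes shown, the immune or alternative beta subunits changed by 0.94 to 2.74 in size at 24 h, and in different directions. The other 40 genes changed by 0.57 at most on theirs. Other probes narrowed this gap, with 0.90 for psmd5 and 0.75 for psmc3 against 0.66 for psmb12. Over 6 ways of scaling the lowest value was 0.62 for psmb12 and 0.61 for psmb9a, and the highest for psmd5 was 0.61. These extremes need not come from the same way of scaling, so they do not show the gap within any of them. By these ranges psmb10 lay furthest apart, between -2.89 and -2.43. The gene psmb10, which encodes the inducible trypsin-like subunit of immunoproteasomes, had -1.47, -1.97 and -2.17 in PCSK7 plus p53 embryos against 0.50, 0.85 and 1.25 in control embryos at 24 h. It was 6.67-fold lower (log2 -2.74, SE 0.20, adjusted p = 9.07e-06), more than any difference between arrays of a group, and all 3 of its probes fell, by 2.43 to 2.74 (log2 -2.43 to -2.74). At 6 h it read -0.10, -0.23 and -0.13 in PCSK7 plus p53 embryos against -0.38, -0.29 and -0.38 in control embryos, a change of 0.19 that did not pass (SE 0.20, adjusted p = 0.42). Every PCSK7 plus p53 array was above every control array at 6 h, as for 31.1% of kept probes. The SE rests on 1 spread shared by all 4 groups, and the 24 h arrays of this gene varied more than its 6 h arrays. The difference between the effects was -2.93 (SE 0.28, adjusted p = 3.52e-05). Over time psmb10 fell in PCSK7 plus p53 embryos (log2 -1.72, SE 0.20, adjusted p = 8.59e-06) and rose in control embryos (log2 1.21, SE 0.20, adjusted p = 0.000145).

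The gene psmb12 had -1.12, -1.40 and -2.11 in PCSK7 plus p53 embryos against -2.46, -2.52 and -2.47 in control embryos at 24 h, and -1.74, -1.41 and -1.62 against -0.28, -0.71 and -0.54 at 6 h. All PCSK7 plus p53 arrays were above control at 24 h (log2 0.94, SE 0.22, adjusted p = 0.00553) and all were below it at 6 h (log2 -1.08, SE 0.22, adjusted p = 0.0017), on both of its probes. The difference between the effects was 2.02 (SE 0.31, adjusted p = 0.000519). Control embryos had less of it at 24 h than at 6 h (log2 -1.97, SE 0.22, adjusted p = 5.67e-06), while in PCSK7 plus p53 embryos the change over time was 0.04 (SE 0.22, adjusted p = 0.852).

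The gene psmb9a, the inducible counterpart of the caspase-like subunit, is measured by 1 probe near the low end of the signal. It had -3.33, -3.23 and -3.10 in PCSK7 plus p53 embryos against -4.25, -4.37 and -4.98 in control embryos at 24 h, a rise of 2.49-fold (log2 1.31, SE 0.19, adjusted p = 0.000352). At 6 h it had -3.20, -2.77 and -2.77 in PCSK7 plus p53 embryos against -3.49, -3.41 and -3.64 in control embryos (log2 0.60, SE 0.19, adjusted p = 0.0172). The groups were apart at both times, but the 6 h call was lost without control replicate 3 or PCSK7 plus p53 replicate 2 or 3 at 6 h and with another background correction. The size depended on the processing too, between 0.61 and 1.58 at 24 h and between 0.13 and 0.60 at 6 h over 6 ways of scaling, among them that background correction. Over time it changed by -0.31 in PCSK7 plus p53 embryos (adjusted p = 0.14) and by -1.02 in control embryos (SE 0.19, adjusted p = 0.000335).

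In the RefSeq gene order psmb12 and psmb9a are direct neighbours, next to antigen-processing genes, and psmb10 lies elsewhere. Neighbours were looked at after their values were seen. The stretch looked up reached further before psmb9a than after it, so genes left out may lie closer than some named here. Those with values, each in PCSK7 plus p53 against control embryos, began with the class I gene mhc1uba, with 2.87 at 24 h and 4.85 at 6 h (adjusted p = 6.93e-05 and 1.18e-06). The chromatin reader gene brd2a had 0.20 (adjusted p = 0.0529) and -0.86 (adjusted p = 1.01e-05). The peptide-loading gene tapbp.2 had -1.22 (adjusted p = 0.000579) and -0.20 (adjusted p = 0.375).

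Leukocytes are a cell type that carries immune beta subunits, and 9 of 10 listed markers were measured. In PCSK7 plus p53 against control embryos 1 rose (mpeg1.1, 0.56), 2 fell and 6 did not pass at 24 h, and 3 rose, 3 fell and 3 did not pass at 6 h. These shares (11.1% higher and 22.2% lower at 24 h, 33.3% each way at 6 h) were near or below those of all kept probes (20.6% and 25.1% at 24 h, 28.4% and 31.2% at 6 h). The falls at 24 h were those of the neutrophil and macrophage gene lyz, which encodes lysozyme (log2 -2.21), and of mpx (log2 -0.67). The early myeloid factor gene spi1b changed by 0.10 there. The summed signal of the 9 markers, relative to the 75th percentile, was 4.60 to 5.15 in PCSK7 plus p53 embryos against 4.53 to 5.08 in control embryos at 24 h, and 7.93 to 9.09 against 4.84 to 6.43 at 6 h. Most of that sum came from the brightest probes, of lcp1 and coro1a at 24 h and of lcp1 and cybb at 6 h. Dimmer genes such as lyz hardly enter it, so it does not measure leukocyte content. At 24 h il1b and at 6 h lyz, mpeg1.1, mpx and spi1b were not well above background on any array of either morpholino group. The 6 h calls of lyz, mpeg1.1 and mpx therefore rest on signals near background. The 6 h fall of csf1ra (log2 -2.31) does so in PCSK7 plus p53 embryos, where it was above background on 1 of 3 arrays. The part of leukocytes in the immune subunit changes was not tested.

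Other genes of the pathway were followed from 3 lists. Of the regulators and assembly factors, 22 of 29 were measured. In PCSK7 plus p53 against control embryos 9 rose and 5 fell at 24 h (40.9% and 22.7% of those measured, against 20.6% and 25.1% of all kept probes), and 7 rose and 10 fell at 6 h (31.8% and 45.5%, against 28.4% and 31.2%). The outstanding one was psme1, which encodes a subunit of the activator ring that docks to the core in place of the cap. Its arrays gave -2.09, -2.68 and -2.78 in PCSK7 plus p53 embryos against -2.12, -2.39 and -2.20 in control embryos at 24 h, which overlapped (log2 -0.28, adjusted p = 0.234). At 6 h they gave 1.01, 1.05 and 1.35 against -1.98, -2.33 and -2.30, 10.1-fold higher (log2 3.34, SE 0.18, adjusted p = 4.96e-07). Its ring partner psme2 changed by 0.04 at 24 h and -0.22 at 6 h. At 24 h the core assembly genes pomp (log2 -0.64) and psmg3 (log2 0.61) moved most, and at 6 h, after psme1, the inhibitor gene psmf1 (0.65), the cap deubiquitinase gene uchl5 (0.64) and the cap-bound thioredoxin gene txnl1 (0.62).

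Of the genes for ubiquitin supply, shuttles and the unfoldase, 15 of 22 were measured. At 24 h 1 rose and 8 fell (6.67% and 53.3%, against 20.6% and 25.1% of all kept probes), and at 6 h 5 rose and 6 fell (33.3% and 40%, against 28.4% and 31.2%). The shuttle gene rad23ab fell at both times (log2 -1.42 at 24 h and -1.50 at 6 h), while its relative rad23b rose (0.48 and 0.44). The unfoldase gene vcp changed by -0.47 at 24 h and -0.09 at 6 h. Of the COP9 signalosome, a complex built like the lid, 7 of 9 genes were measured, with 2 higher and 1 lower at 24 h (28.6% and 14.3%, against 20.6% and 25.1% of all kept probes) and 1 higher and 4 lower at 6 h (14.3% and 57.1%, against 28.4% and 31.2%). Over time COP9 genes rose, 7 of 7 in PCSK7 plus p53 embryos with a median of 1.28, and 6 of 7 in control embryos with a median of 1.00, where 45.2% and 45.5% of all kept probes rose and the medians of all named genes were 0.10 and 0.15.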

How the data were processed

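The 12 arrays were Agilent 1-colour (Cy3) zebrafish arrays with 45220 spots, 3 for each of 4 groups. Per the labels' protocols, 100 ng of total RNA per pool was amplified and embryos were kept at 28.5 °C. Per the file headers, the deposited processed signal is an intensity on a linear scale from Agilent Feature Extraction (build 10.7.1.1 for the control arrays and 10.7.3.1 for the PCSK7 plus p53 arrays). It is background-subtracted and detrended within the array and not normalized between arrays. The authors' value table of the same arrays holds intensities of 19838 probes with a median of 172.1 in every column. How it was normalized is not given in the sources, and it served as an alternative.

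The log2 processed signal minus each array's 75th percentile was analysed. A probe was kept when it stood well above background throughout at least 1 group of 3 arrays and had a value on each array, which left 36684 of 43603 non-control probes, and 76 probes lacked a value on some array. Genes were named through the accession column and RefSeq (26854 probes, 14016 genes, 16749 probes unnamed), and each gene is shown by its kept probe with the highest mean signal. Group means were fitted over all 12 arrays with limma 3.58.1 (R 4.3.3; lmFit, eBayes), with Benjamini-Hochberg adjustment over the kept probes at 0.05. The procedure was tested on simulated data. The number of arrays limits the precision. Values per array are given mainly for the largest rises and falls of the role groups and for some of the genes whose probes disagreed. Further genes were added after their values were seen. The members and lists were chosen with earlier results of these data known. Alternatives were another background correction, other scalings, filters, blocks and variance settings, another probe summary, the deposited value table, and leaving out each array.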

Additional observations from a re-analysis of the deposited data

Results flagged for a closer look

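For 19 subunit genes the effect of the PCSK7 plus p53 morpholinos differed between 24 h and 6 h by limma's test of the difference itself (24 h effect minus 6 h effect, log2, adjusted p under 0.05 over all kept probes). Among the immune or alternative beta subunits it was -2.93 for psmb10, 2.02 for psmb12 and 0.71 for psmb9a. The call for psmb9a was lost in 10 of 23 alternatives, among them those without any 6 h control array, control replicate 3 at 24 h, PCSK7 plus p53 replicate 1 at 6 h or any PCSK7 plus p53 array at 24 h.

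In the constitutive core the difference was -0.86 for psma2a, -0.81 for psmb6, -0.47 for psma3, -0.36 for psma5, -0.33 for psma1, -0.29 for psmb7, -0.28 for psmb5 and -0.23 for psma2b. In the cap and its chaperones it was -0.90 for psmd4b, -0.82 for psmd5, -0.51 for psmd2, -0.37 for psmd1, -0.35 for psmd3, -0.33 for psmc3, -0.25 for psmd13 and -0.24 for psmc1a. The differences of psma2a, psma3, psmb6, psmb10, psmb12, psmd4b and psmd5 passed in each alternative tried, with 1 kept probe each for psma2a, psma3 and psmb6. Those of psma2b, psma5 and psmb5 were lost in 17, 15 and 11 of the 23, including settings that leave out 1 array.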

How the results depend on the processing

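Of the called subunit genes, 23 of 32 at 6 h, 11 of 22 at 24 h, 7 of 19 for the difference of effects, 38 of 41 over time in PCSK7 plus p53 embryos and 39 of 43 over time in control embryos kept their call in every alternative. For psmd3, kept at 24 h and over time, the deposited values were no alternative because they lack its probe. At 24 h, quantile normalization called 20 higher and 4 lower, cyclic loess 19 and 4, and the authors' deposited values 20 and 3, against 13 and 9 as given. For the difference of effects, given as 2 positive and 17 negative, quantile normalization called 10 and 6, cyclic loess 10 and 7, and the authors' deposited values 10 and 7. The positive count was 4 with array-median scaling, with the mean of all probes of a gene, with slide as a random block and with only probes above background on all arrays, 5 with a trended and robust eBayes, and 1 without a filter. Leaving out 1 array at a time gave 20 to 23 higher and 7 to 9 lower at 6 h, 9 to 14 and 7 to 10 at 24 h, 1 to 3 positive and 14 to 18 negative differences, 37 higher and 4 to 5 lower over time in PCSK7 plus p53 embryos, and 38 and 5 in control embryos. The causes were not tested.

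The 6 ways of scaling were that given, quantile, cyclic loess, array median, normexp background correction and the deposited values, the last without psmd3. Over these the change took both signs for 6 of 43 genes at 24 h, 3 at 6 h, 12 for the difference of effects, 2 over time in PCSK7 plus p53 embryos and 3 over time in control embryos. Most of these were not called as given; the called ones were psmd14 at 24 h, psma1 for the difference of effects, psmd6 over time in both groups, and psmb4 and psmd11b over time in control embryos. The values that turned and passed on at least 1 side were these. At 24 h psma8 became 0.19 (quantile) and 0.23 (deposited values), and psmd14 0.01 (quantile). For the difference of effects psmb2 became 0.28 (quantile) and 0.27 (deposited values), and psma1 0.02 (deposited values). Over time in PCSK7 plus p53 embryos psmd6 became -0.45 (quantile) and -0.17 (deposited values). In control embryos psmd6 became -0.50 (quantile), -0.25 (cyclic loess), -0.01 (array median) and -0.30 (deposited values), psmb4 -0.01 (quantile) and psmd11b -0.16 (array median).

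Replicate numbers did not pair the samples, with correlations of same-numbered deviations of -0.0532 to 0.0162. The replicate block gave 20 higher and 8 lower at 6 h, 10 and 8 at 24 h, 1 positive and 14 negative differences, and over time 37 and 4 in PCSK7 plus p53 embryos and 38 and 5 in control embryos. The planned background correction on mean spot signals was not run because the files have no such column. Normexp on median spot signals, chosen after seeing the data, shifted the median of all kept probes at 6 h to -0.27, against -0.04 as given. Over time array-median scaling shifted it to -0.28 in PCSK7 plus p53 embryos and -0.30 in control embryos, against 0.01 and 0.04. The genes psma6l and psmb9a lay closest to background and had the widest spread in control embryos at 24 h.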
